A study of Homo sapiens with 6 samples.

Results

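The 9 transcription factors RAX, RAX2, VSX1, NRL, NR2E3, PRDM1, RORB, THRB and SIX6, which set retinal cell fates, were followed in ChIP-seq maps of 2 histone marks in D283 cells. The 9 genes were taken by name out of the 19974 genes that RefSeq lists as protein-coding on the autosomes and X, and each was given its RefSeq GRCh38 span plus 5 kb on either side. All 9 were found, and their windows held 14 of 27974 H3K4me3 peaks in OTX2low cells, 15 of 32449 in OTX2high cells, 27 of 100283 and 16 of 156508 H3K27me3 peaks in the lists labelled OTX2low and OTX2high, and 10 of 21714 H3K4me3 and 2 of 5401 H3K27me3 regions of the authors' differential tables. D283 is an established cell line of Group 3 medulloblastoma, a childhood tumour of the cerebellum. OTX2low cells had OTX2, a homeodomain factor, silenced with 30 nM siRNA. OTX2high cells received a scramble siRNA that silences no gene. Both were tumorspheres, floating clusters kept in a neural precursor medium on plates of ultra-low attachment, with bFGF and EGF at 20 ng/mL each. With 1 library for each mark in each condition, nothing below could be checked against a replicate. The number of cultures behind a library and the time of harvest were not given in the sources used here.

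In the developing retina OTX2 and its relative CRX are needed for photoreceptor development, and the factors described here act around them. RAX and SIX6 mark the eye field and its progenitors, RORB, PRDM1, NRL, NR2E3, THRB and RAX2 act in photoreceptors, and VSX1 acts in cone bipolar cells. H3K4me3 lies at the starts of active and poised genes, H3K27me3 is laid down by Polycomb complexes over silenced developmental genes, and promoters that carry both are called bivalent.

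The H3K4me3 libraries held 20914582 (OTX2low) and 33137731 (OTX2high) filtered tags, so the OTX2high library was the deeper. The H3K27me3 lists labelled OTX2low and OTX2high rested on 33885628 and 40271458 tags, with estimated fragment lengths of 78 and 169 bp, on which peak width depends. The header of each of these lists names the opposite condition to its sample label, so they are called by label, and no direction is taken from them. H3K27me3 directions follow the condition names of the differential table and would turn round if the sample labels were right. The 5 housekeeping genes examined had H3K4me3 in both conditions and no H3K27me3. At OTX2 itself the authors' deposited table gave 1767.5 normalized H3K4me3 reads in OTX2low and 3119.1 in OTX2high, a log2 ratio of -0.82 (OTX2low over OTX2high). The siRNA acts on the transcript, so this does not measure the silencing.

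To show what the marks sat on, RefSeq GRCh38.p14 promoter sequences (250 bases before to 50 after a start) are printed 5′ to 3′ for 6 genes, with every CpG in capitals. RAX and VSX1 carried both marks there, THRB and NRL H3K4me3 alone, and PRDM1 and NR2E3 neither. They are chr18:59273405-59273704 (minus strand), chr20:25081282-25081581 (minus), chr3:24494801-24495100 (minus, the second of the 2 listed starts), chr14:24095081-24095380 (minus, the second of 2), chr6:106086086-106086385 (plus, the first of 2) and chr15:71810304-71810603 (plus). NR2E3 was added after its values were seen.
RAX: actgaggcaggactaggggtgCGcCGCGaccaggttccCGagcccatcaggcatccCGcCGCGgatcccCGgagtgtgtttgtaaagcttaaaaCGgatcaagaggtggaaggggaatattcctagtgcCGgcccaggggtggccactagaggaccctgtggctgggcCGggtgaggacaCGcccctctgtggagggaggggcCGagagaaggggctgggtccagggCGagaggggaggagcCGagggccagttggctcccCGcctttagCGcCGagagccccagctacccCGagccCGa
VSX1: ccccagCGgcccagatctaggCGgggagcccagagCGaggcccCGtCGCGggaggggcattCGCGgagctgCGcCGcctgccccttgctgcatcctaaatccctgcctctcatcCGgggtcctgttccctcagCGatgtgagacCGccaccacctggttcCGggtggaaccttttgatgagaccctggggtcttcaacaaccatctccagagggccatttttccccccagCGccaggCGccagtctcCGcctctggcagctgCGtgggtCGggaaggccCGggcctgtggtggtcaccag
THRB: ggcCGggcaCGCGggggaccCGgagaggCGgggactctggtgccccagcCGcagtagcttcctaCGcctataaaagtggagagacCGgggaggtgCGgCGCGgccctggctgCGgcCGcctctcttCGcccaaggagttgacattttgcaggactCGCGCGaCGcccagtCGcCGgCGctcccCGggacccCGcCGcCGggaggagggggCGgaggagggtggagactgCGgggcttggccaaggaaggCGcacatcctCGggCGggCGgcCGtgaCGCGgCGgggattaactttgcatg
NRL: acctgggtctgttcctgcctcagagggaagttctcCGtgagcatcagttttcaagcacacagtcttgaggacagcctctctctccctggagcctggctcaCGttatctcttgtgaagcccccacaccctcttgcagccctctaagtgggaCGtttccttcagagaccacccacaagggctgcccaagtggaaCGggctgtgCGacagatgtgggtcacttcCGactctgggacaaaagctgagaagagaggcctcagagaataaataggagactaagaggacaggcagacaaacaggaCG
PRDM1: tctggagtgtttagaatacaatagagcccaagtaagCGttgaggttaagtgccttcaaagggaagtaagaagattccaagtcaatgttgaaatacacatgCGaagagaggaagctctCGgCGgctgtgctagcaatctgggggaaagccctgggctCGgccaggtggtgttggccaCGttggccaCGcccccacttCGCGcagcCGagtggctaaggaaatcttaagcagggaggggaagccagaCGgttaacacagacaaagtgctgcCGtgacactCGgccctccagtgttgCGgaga
NR2E3: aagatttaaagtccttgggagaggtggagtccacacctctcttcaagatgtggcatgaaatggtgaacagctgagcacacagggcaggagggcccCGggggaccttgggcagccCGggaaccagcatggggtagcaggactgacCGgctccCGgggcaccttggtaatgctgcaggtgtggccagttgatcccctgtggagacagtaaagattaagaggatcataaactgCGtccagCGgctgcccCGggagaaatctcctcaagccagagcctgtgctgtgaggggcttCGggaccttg
The promoter table held 13 starts of 8 of the 9 genes. These 300 bases held 35 CpG at THRB, 20 at RAX, 20 at VSX1, 14 at PRDM1, 8 at NR2E3 and 7 at NRL. The observed over expected CpG ratio was 0.92 at THRB, 0.61 at RAX, 0.59 at VSX1, 0.65 at PRDM1, 0.32 at NR2E3 and 0.31 at NRL. The second NRL start thus lay under an H3K4me3 peak in both conditions with about as few CpG as NR2E3, which lay under none. The summit of that peak was nearer to the PCK2 start (195 bp in OTX2low, 369 bp in OTX2high) than to this NRL start (624 and 450 bp). The peak therefore cannot be given to NRL alone.

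Across the 13 starts, 8 (61.5%) lay under an H3K4me3 peak in OTX2low and the same number in OTX2high, against 64.8% and 65.9% of 22132 RefSeq promoters. Of the 8, 6 had no H3K27me3 in either list. That is 6 of the 13 starts, against 13443 of 22132 promoters with H3K4me3 in both conditions and no H3K27me3. RAX and the first VSX1 start (2 of 13) lay under H3K27me3 in the list labelled OTX2low and in the list labelled OTX2high, against 3.85% and 9.33% of promoters. The 5 starts with no H3K4me3 were those of NR2E3 (CpG ratio 0.32), both PRDM1 starts (0.65 and 0.46), the second VSX1 start (0.54) and the second RORB start (0.32). None of the 5 had H3K27me3 either, and 6249 of the 22132 promoters had neither mark. Over all promoters the median ratio was 0.78 where both marks lay in every list (n = 257), 0.85 where H3K4me3 lay alone in both conditions (n = 13443) and 0.26 where neither lay (n = 6249). RAX and VSX1 were thus below the lower quartile, 0.69, of promoters with both marks, and both PRDM1 starts were above the upper quartile, 0.44, of promoters with neither. The letters TAATCC, the core that OTX2 and CRX bind, or their complement GGATTA, occurred in 1 of the 13 starts, 34 bp after the second THRB start, against 5.46% of all promoters. TAATTA, a homeodomain core that reads alike on both strands, occurred in 0 of the 13, against 3.4%.

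**Figure D1:**
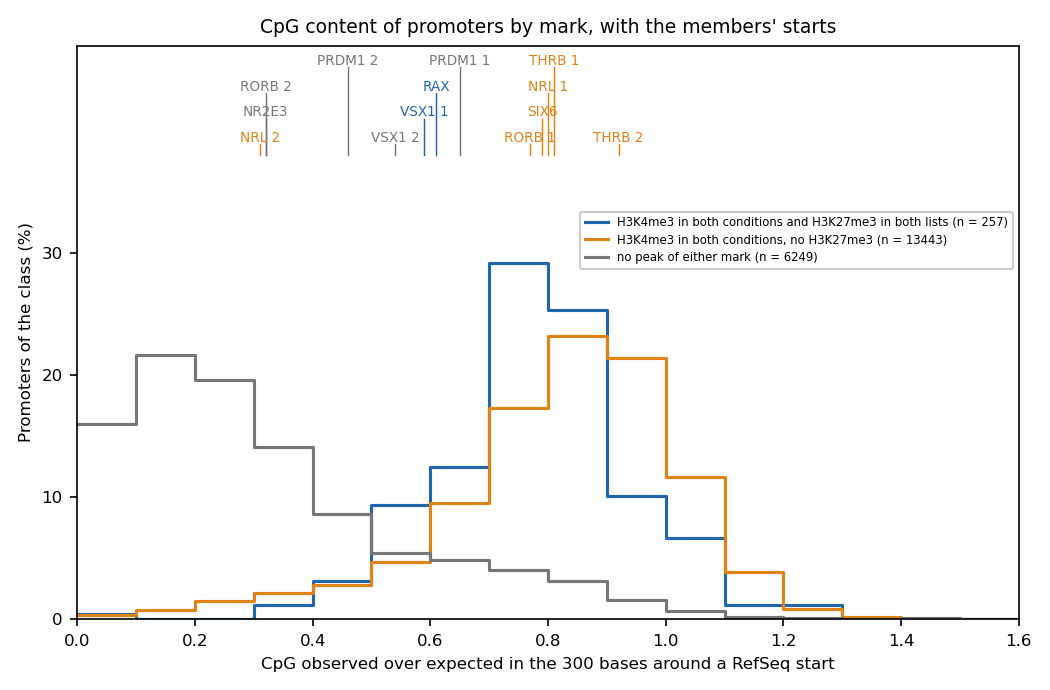
Observed over expected CpG ratio of the 300 bases around each RefSeq start (x axis) against the percent of promoters in each class (y axis, lines), with the 13 starts marked above in the colour of their class. RAX and VSX1 start 1 lie at 0.61 and 0.59, left of the median of 0.78 for promoters with both marks. NRL start 2 lies at 0.31 under an H3K4me3 peak whose summit is nearer to the start of PCK2.

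H3K4me3 marked most of these genes in both conditions, and H3K27me3 marked a pair of them. An H3K4me3 peak lay in the window of 6 of the 9 genes in OTX2low and 7 in OTX2high, beside 75.7% and 77.0% of all protein-coding genes. Those marked in both conditions were the same 6 (background 74.9%), namely RAX, VSX1, NRL, RORB, THRB and SIX6, and the seventh was PRDM1. H3K27me3 peaks lay at RAX and VSX1 (2 of 9) in the list labelled OTX2low and in the list labelled OTX2high, beside 19.8% and 29.5% of genes. Thus RAX and VSX1 had peaks in all 4 lists (background 11.5%), NRL, RORB, THRB and SIX6 had H3K4me3 in both conditions without H3K27me3 (54.7%), and RAX2 and NR2E3 had no peak in any list (13.1%). The members' shares (22.2%, 44.4% and 22.2%) rest on so few genes that 1 gene moves them by 11.1 percentage points. The median window was shorter than usual, 21.3 kb against 34.2 kb over all genes, and a longer window has more room for a peak. Those of NRL (46288 bp), PRDM1 (127249 bp), RORB (205843 bp) and THRB (388556 bp) were however longer than the median over all genes.

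RAX, the homeodomain factor that founds the eye field, carried both marks at its start, in its body and past its 3′ end. Peak heights and folds over local background below are the authors' own values for each peak, from libraries of unequal depth, and no change between conditions is read from them. H3K4me3 covered 4.52 kb of the RAX window in 4 peaks in OTX2low and 5.71 kb in 3 peaks in OTX2high. The gene lies at chr18:59267038-59273454 on the minus strand. The peak at the start of RAX reached a pileup of 38 tags and a fold of 16.2 in OTX2low, and 87 tags and 26.5 in OTX2high. A stronger one lay past the 3′ end of the gene, its summit 7940 and 7989 bp downstream of the start, with 58 tags and a fold of 24.6 in OTX2low and 102 tags and 31.0 in OTX2high. Even this fold stood at percentile 23.7 in OTX2low and 24.5 in OTX2high among genes with an H3K4me3 peak. H3K27me3 in the RAX window was by contrast among the stronger signals. Its highest fold was 8.09 in the list labelled OTX2low (percentile 86.4) and 10.7 in the list labelled OTX2high (92.0). Both of these summits lay past the 3′ end, 9071 and 8504 bp downstream of the start. Over the start itself the list labelled OTX2low had a peak of 161 bp with a fold of 4.55, at percentile 36.5 of that list. The peak over the start in the list labelled OTX2high had a fold of 7.3, its summit 1460 bp downstream. H3K27me3 covered 5.43 kb in 20 short peaks in the list labelled OTX2low and 12.8 kb in 6 peaks in the list labelled OTX2high. In that list blocks of 5657 bp (chr18:59269372-59275028) and 5937 bp (chr18:59263247-59269183) covered the start, nearly all of the gene body and the downstream H3K4me3 peak.

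VSX1, a homeodomain factor of cone bipolar cells, at chr20:25070880-25082141 (minus strand), was the other gene with both marks. Its H3K4me3 was weak. The peak at its start reached a pileup of 18 tags and a fold of 7.91 in OTX2low, and 38 tags and 11.7 in OTX2high. An upstream peak was higher, with 33 tags and a fold of 14.2 in OTX2low, 2673 bp before the start, and 67 tags and 20.5 in OTX2high, 3067 bp before it. The start meant here is the first VSX1 start of the promoter table, chr20:25081331, which lies inside the RefSeq span. The VSX1 maximum stood at percentile 9.5 in OTX2low and 13.1 in OTX2high, lower than that of any other of the 6 genes marked in both conditions. In the list labelled OTX2low H3K27me3 covered 1.11 kb in 7 peaks, and in the list labelled OTX2high 8.21 kb in 10 peaks. The highest H3K27me3 fold was 7.07 in the list labelled OTX2low (percentile 72.0) and 7.1 in the list labelled OTX2high (66.8). In that second list a peak of 3002 bp (chr20:25080728-25083729) lay over the start and 1 of 1693 bp over the upstream H3K4me3 peak.

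**Figure D2:**
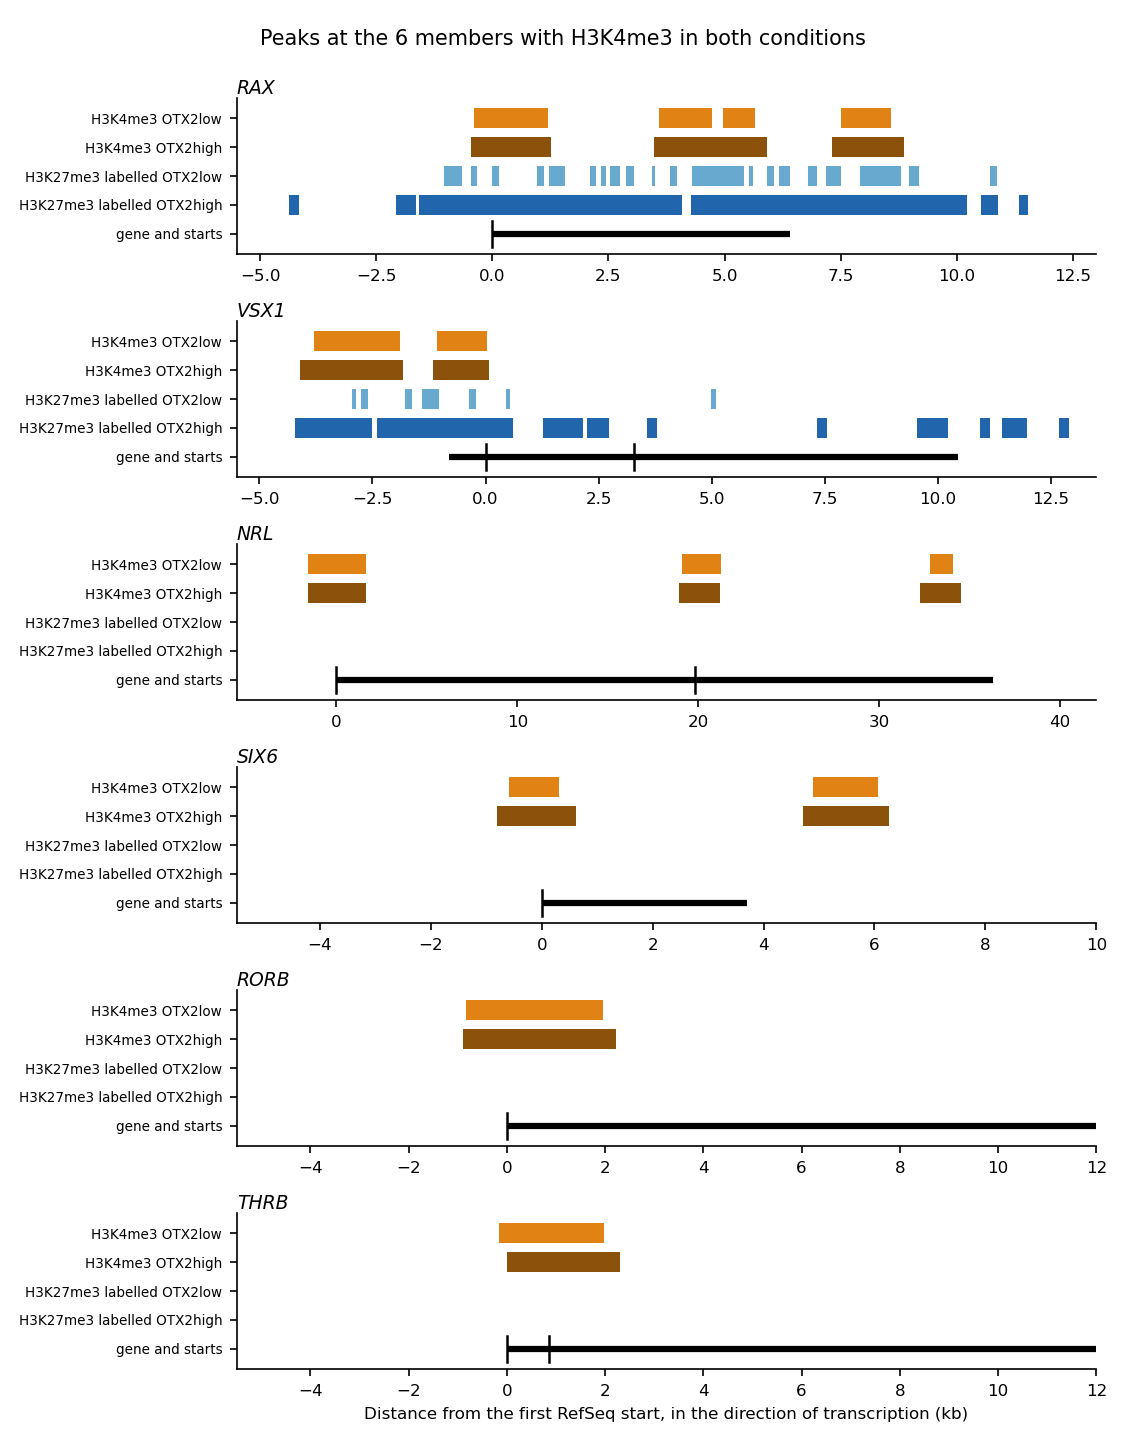
Peaks of the 4 lists at the 6 genes marked by H3K4me3 in both conditions, by distance from the first RefSeq start in the direction of transcription (kb). Black bars are the genes and ticks the listed starts, and RORB and THRB are drawn only around their starts. RAX and VSX1 carry H3K27me3 along with H3K4me3, and at RAX and SIX6 an H3K4me3 peak lies past the 3′ end.

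SIX6, a homeodomain factor of the eye field at chr14:60509146-60512850 (plus strand), had H3K4me3 at its start and past its 3′ end, as RAX did, but no H3K27me3 peak. At its start the pileup was 30 tags and the fold 12.9 in OTX2low, and 51 tags and 15.7 in OTX2high. The higher SIX6 peak lay past the 3′ end, 5611 and 5623 bp downstream of the start, with 51 tags and a fold of 21.6 in OTX2low and 97 tags and 29.5 in OTX2high. That downstream peak also falls inside the span of the neighbouring gene C14orf39, so it cannot be given to SIX6 alone. The same span takes in SIX6 and its start peak. The summit of the start peak lay 131 bp (OTX2low) and 111 bp (OTX2high) from the SIX6 start, and 22952 and 23194 bp from the listed C14orf39 start. No differential region of either mark overlapped the SIX6 window.

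RORB, an orphan nuclear receptor that lies upstream of Nrl in the mouse rod pathway, had 1 H3K4me3 peak across its first start. The gene spans chr9:74497335-74693177 (plus strand). The peak was 2793 bp wide with a pileup of 81 tags and a fold of 34.1 in OTX2low, and 3108 bp wide with 145 tags and 44.0 in OTX2high. Its fold stood near the middle of marked genes, at percentile 44.7 in OTX2low and 46.9 in OTX2high. The second RORB start, within the gene, had no peak. RORB had no region in either differential table.

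THRB, the thyroid hormone receptor with an isoform needed for cone opsin choice in mice, was marked at both of its listed starts, which lie 858 bp apart in a gene spanning chr3:24117153-24495708 (minus strand). This peak reached a pileup of 77 tags and a fold of 32.5 in OTX2low, and 146 tags and 44.3 in OTX2high. Its summit was 167 bp before the nearest start in OTX2low and 698 bp after it in OTX2high. Inside the gene each condition had 1 further weak peak that the other lacked, with a fold of 3.33 and 7 tags in OTX2low, and a fold of 2.68 and 11 tags in OTX2high. They lay far apart, at chr3:24332355-24332535 in OTX2low and chr3:24242293-24242532 in OTX2high.

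NRL, the leucine zipper factor that directs rod fate, carried the highest H3K4me3 of the 9 genes, but its peaks at starts lay beside neighbours. NRL spans chr14:24078662-24114949 (minus strand). The peak over its first start had a pileup of 95 tags and a fold of 40.0 in OTX2low and 181 tags and 54.8 in OTX2high, at percentiles 63.2 and 76.3 of marked genes. The summit was 1142 bp from the NRL start and 970 bp from that of DCAF11 in OTX2low, and 575 and 403 bp from them in OTX2high. The second peak, with 83 tags in OTX2low and 155 in OTX2high, lay 624 and 450 bp from the second NRL start and 195 and 369 bp from that of PCK2. Reads of these peaks cannot be divided between NRL and its neighbours. The remaining peak was far from both listed NRL starts, 13824 bp downstream of the second in OTX2low and 13556 bp in OTX2high. Any NRL start outside the promoter table was not examined. This peak had a pileup of 41 tags and a fold of 16.7 in OTX2low, and 119 tags and 36.1 in OTX2high.

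PRDM1, a zinc finger repressor that favours photoreceptor over bipolar fate in mice, had no H3K4me3 peak in OTX2low across its span, chr6:105992690-106109938 (plus strand), or the flanks. In OTX2high it had 2 small peaks of 304 and 255 bp, each with a pileup of 15 tags, a fold of 3.91 and a -log10 q of 4.85. They lay 46379 and 45978 bp before the first PRDM1 start of the promoter table yet within the RefSeq span, and their fold stood at percentile 0.865 of marked genes. NR2E3, the nuclear receptor that represses cone genes in rods (chr15:71810554-71818253, plus strand), had no peak and no differential region of either mark. RAX2, a homeodomain factor of photoreceptors (chr19:3769089-3772228), had no peak within 5 kb.

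H3K4me3 peaks were largely shared by the conditions at these genes. Of their 14 peaks in OTX2low, 13 (92.9%) overlapped an OTX2high peak, and of the 15 in OTX2high, 12 (80.0%) overlapped an OTX2low peak. Over the whole lists the shares were 87.9% and 66.8%. The unshared peaks were the weak ones inside THRB and the pair at PRDM1. For H3K27me3, 26 of 27 peaks (96.3%) in the list labelled OTX2low overlapped the other list, and 5 of 16 (31.2%) in the list labelled OTX2high did, against 84.5% and 25.7% over the whole lists.

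Where H3K4me3 differed between the libraries it was mostly lower in OTX2low, at these genes as over the whole genome. Of all 21714 listed regions, 16038 were higher in OTX2high. The 5 housekeeping genes all had regions higher in OTX2high only, with a median log2 ratio of -0.51. The authors' differential table lists regions whose scaled reads differ by a G-test of 1 library against 1, which compares those libraries and not the conditions. All regions were higher in OTX2low at 0 of the 9 genes (background 6.37%), all were higher in OTX2high at 5 (RAX, RAX2, VSX1, NRL and PRDM1, background 43.5%), THRB had both directions (6.79%), and NR2E3, RORB and SIX6 had no region (43.4%). The median log2 ratio, taking the region with the most reads at each gene, was -0.63 over the 6 genes with a region, against -0.53 over the 11314 genes with a listed region (quartiles -0.68 and -0.43). That median describes regions already listed as differing and leaves out the 8660 genes with none, RORB, SIX6 and NR2E3 among them, so it is no measure of a shift over all genes. Intervals below are exact conditional (Clopper-Pearson) 95% intervals from the recovered reads, which cover counting error only and may be too narrow, since PCR copies are not separate molecules.

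RAX, VSX1 and THRB had ratios close to that median of listed genes. At the start of RAX (chr18:59272401-59273600) the authors' deposited table gave 171.7 normalized reads in OTX2low and 253.7 in OTX2high (adjusted p = 2.49e-03). The RAX log2 ratio was -0.56 (-0.86 to -0.27), or -0.03 from the median over genes with a region. Upstream of VSX1 (chr20:25084101-25085500) the authors' deposited table gave 139.2 normalized reads in OTX2low and 225.0 in OTX2high (adjusted p = 4.27e-04), a log2 ratio of -0.69 (-1.02 to -0.37). At the second THRB start (chr3:24493201-24494900, a region that does not reach the first) there were 384.8 reads in OTX2low and 526.5 in OTX2high in the authors' deposited table (adjusted p = 2.08e-04), a log2 ratio of -0.45 (-0.65 to -0.25). Each of these intervals holds the -0.53 of listed genes.

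NRL had regions on either side of that median. At the peak far from both listed starts (chr14:24080701-24083300) the authors' deposited table gave 254.5 normalized reads in OTX2low and 426.0 in OTX2high (adjusted p = 9.14e-09), a log2 ratio of -0.74 (-0.98 to -0.51). At the second NRL start (chr14:24094401-24096100) it was 433.7 reads in OTX2low and 575.2 in OTX2high in the authors' deposited table (adjusted p = 5.26e-04), a log2 ratio of -0.41 (-0.60 to -0.22). Both NRL intervals also hold the median over listed genes. The enrichment over IgG at the first of these regions was 12.5 in OTX2low and 29.5 in OTX2high in the authors' deposited table. At the second start it was 41.6 in OTX2low and 81.3 in OTX2high in the authors' deposited table.

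Taking each gene's region with the most reads, RAX2 and PRDM1 had a ratio of at least 2-fold, lower in OTX2low in both cases (2 of 9, background 7.42%), and 0 of the 9 were 2-fold higher there (5.33%). The RAX2 region (chr19:3763201-3764200) had 33.9 normalized reads in OTX2low and 75.8 in OTX2high in the authors' deposited table (adjusted p = 1.96e-03), a log2 ratio of -1.16 (-1.84 to -0.53). It touches the RAX2 window but covers no base of the gene, and its centre lies 1018 bp from the start of MRPL54, so it cannot be told apart from MRPL54 signal. At the first of the PRDM1 peaks (chr6:106039001-106040000) the authors' deposited table gave 3.76 normalized reads in OTX2low and 23.9 in OTX2high (adjusted p = 2.00e-03), which are 3 and 30 reads. The PRDM1 log2 ratio of -2.67 has an interval of -5.03 to -0.98. A second PRDM1 region, 2564 bp after the first start (chr6:106088401-106089400), rested on 1 read in OTX2low and 21 in OTX2high in the authors' deposited table and had no peak. Enrichment over IgG at the first PRDM1 region was 0.47 in OTX2low and 2.16 in OTX2high in the authors' deposited table, so it was low in both.

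THRB also had 2 thin regions in opposite directions, neither with a peak. Inside the gene (chr3:24371901-24373000) the authors' deposited table corresponded to 0 reads in OTX2low and 15 in OTX2high (adjusted p = 1.84e-03). Nearer the starts (chr3:24489601-24490900) it corresponded to 13 reads in OTX2low and 1 in OTX2high in the authors' deposited table (adjusted p = 1.44e-03), a log2 ratio of 4.35 (1.62 to 9.76). This was the only region of the 9 genes with more H3K4me3 in OTX2low, and its enrichment over IgG was 1.27 in OTX2low and 0.09 in OTX2high in the authors' deposited table.

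**Figure D3:**
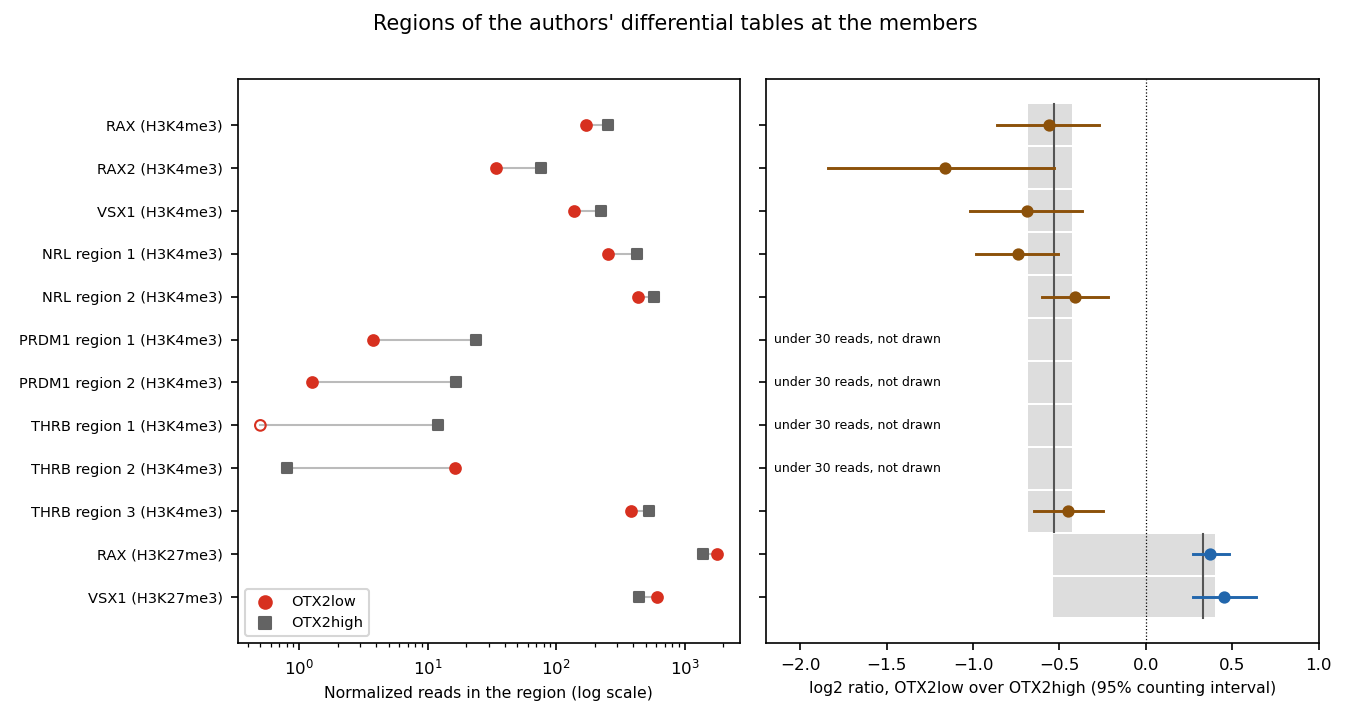
Normalized reads of each listed region in OTX2low (red circles) and OTX2high (grey squares) on a log axis, with 0 reads drawn as an open circle at 0.5 (left), and the log2 ratio of OTX2low over OTX2high with its 95% counting interval for regions reaching 30 normalized reads in either condition (right). Grey bands are the quartiles and lines the medians over protein-coding genes with a region, -0.53 for H3K4me3 and 0.33 for H3K27me3, and the intervals of RAX, VSX1, NRL and THRB cross the line of their mark.

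H3K27me3 regions listed as higher in OTX2low overlapped the windows of both genes that carried the mark. RAX and VSX1 (2 of 9) had H3K27me3 regions higher in OTX2low, beside 7.7% of all genes, 0 of the 9 had 1 higher in OTX2high (3.59%), and 7 had none (88.4%). No gene of the 9 had regions in both directions (0.28%) or a ratio of 2-fold in favour of OTX2low (0.0%) or OTX2high (0.01%). The RAX region spanned 31000 bp around the whole gene (chr18:59257001-59288000), with 1805.2 normalized reads in OTX2low and 1392.6 in OTX2high in the authors' deposited table (adjusted p = 2.51e-11). The RAX log2 ratio was 0.37 (0.27 to 0.48), which stood at percentile 68.1 of the 2312 genes with an H3K27me3 region. These genes split in both directions, with a median of 0.33 and quartiles of -0.54 and 0.40. The VSX1 region (chr20:25054001-25071000) had 606.1 normalized reads in OTX2low and 442.5 in OTX2high in the authors' deposited table (adjusted p = 1.19e-05), a log2 ratio of 0.45 (0.27 to 0.64), at percentile 86.9. It overlapped 121 bp at the 3′ end of VSX1, its centre lying 15552 bp from the VSX1 start and 4361 bp from that of ACSS1. The region, 17000 bp long, takes in the ACSS1 start, so it cannot be told apart from ACSS1 signal. The H3K27me3 over the VSX1 start itself was not in the differential table. The enrichment over IgG at RAX was 5.0 in OTX2low and 3.33 in OTX2high in the authors' deposited table.

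Genes most like 3 of the members in all 4 lists were sought by the Euclidean distance over 4 values, each log2 of 1 plus the peak width in kb weighted by pileup and summed over a gene's window. For RAX these were ADPRHL1 (distance 0.39) and PCDH1 (0.47), and for VSX1 they were GARIN5A (0.36) and LAMC3 (0.43). For PRDM1, which had a value above 0 in 1 list, they were TERB2 and SMIM5, both at a distance of 0.0 after rounding.

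Other retinal development factors, 49 genes listed by cell class, gave the wider setting. H3K4me3 peaks lay at 42 of the 49 in OTX2low and 45 in OTX2high (background 75.7% and 77.0%), and H3K27me3 peaks at 22 in the list labelled OTX2low and 31 in the list labelled OTX2high (19.8% and 29.5%). Peaks in all 4 lists were found at 19 of the 49 (38.8%), against 2 of the 9 members (22.2%) and 11.5% of all genes. H3K4me3 regions were higher in OTX2low at 3 (background 6.37%), higher in OTX2high at 18 (43.5%) and mixed at 4 (6.79%). Their median log2 ratio was -0.52 over 25 genes with a region, beside -0.63 over the members and -0.53 over all genes with a region. H3K27me3 regions were higher in OTX2low at 13 of the 49 (7.7%) and higher in OTX2high at 0 (3.59%), with a median of 0.36 over those 13, and these directions carry the same doubt about the labels.

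Single factors of that list gave H3K4me3 ratios in either direction. CRX had 379.8 normalized reads in OTX2low and 1718.3 in OTX2high in the authors' deposited table, a log2 ratio of -2.18 (-2.36 to -2.0). SIX3, an eye field factor, had 17.6 reads in OTX2low and 52.7 in OTX2high in the authors' deposited table, a log2 ratio of -1.58 (-2.53 to -0.74). The ratio of the member PRDM1, -2.67 on 3 and 30 reads, was lower still, and those of RAX, VSX1, NRL and THRB at their regions with the most reads were nearer to 0. Higher in OTX2low were ONECUT1, a horizontal cell factor, at a log2 ratio of 1.45 (1.14 to 1.76), and PAX6 at 0.75 (0.52 to 0.99), a gene with regions in both directions. For H3K27me3, BHLHE22 had a ratio of 0.63 (0.40 to 0.85) and EBF1 of 0.62 (0.34 to 0.90), intervals that overlap that of VSX1, and both signs would turn with the sample labels. Enrichment over IgG in the authors' deposited table was low, at 2.21 in OTX2low and 1.27 in OTX2high for BHLHE22, and 1.69 in OTX2low and 0.96 in OTX2high for EBF1.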

How the data were processed

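H3K4me3 and H3K27me3 ChIP-seq libraries (1 per mark and condition) came from D283 tumorspheres. The submitters' processing notes name Bowtie2 2.3.3.1, MACS2 2.1.1.20160309 and GRCh38. Per the file headers, MACS compared 1 ChIP with 1 IgG library for every list (q-value 0.05), and the authors' lists give pileup signal, fold enrichment (a ratio) and -log10 p and q per peak. Per the file headers, diffReps 1.55.6 made the differential tables, with windows of 1000 bp (H3K4me3) and 10000 bp (H3K27me3) and a p-value cutoff of 0.0001. The authors' deposited columns hold read signal scaled per library, a ratio over IgG, a log2 ratio, a p-value and an adjusted p-value. That log2 ratio is of OTX2high over OTX2low; the ratios here were recomputed from the reads as OTX2low over OTX2high. The 4 columns of means were not used. The 2 IgG libraries, whose titles and labels name opposite conditions, were put in no group.

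For H3K4me3 each read was worth 1.2536 in OTX2low and 0.7977 in OTX2high, which gave whole reads within 0.05 for 100% of values, and a G-test on them called 21714 of 21714 regions. These regions had been listed by the authors' G-test of the same reads. The repeat therefore bears on the recovery of reads and is no new test of the regions. For H3K27me3 (0.8746 and 1.1434) 99.7% and 99.9% were whole, so these reads are approximate. The library with the smaller step was the deeper, so in the H3K27me3 table it is the one named OTX2low, as in the peak list headers.

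A gene's window was its RefSeq GRCh38.p14 span plus 5 kb, with a minimum overlap of 1 bp. Counts were set beside the share of all 19974 protein-coding genes. No test between conditions was possible with 1 library each. The interval calculation was tested on simulated data. The members and lists were chosen with earlier results of these data known. All 9 members are named. Of the 49 other factors, those with the 3 largest H3K4me3 and 2 largest H3K27me3 ratios each way were named, from regions of at least 20 reads that overlap a peak (only 2 were higher in OTX2low for H3K4me3 and 0 higher in OTX2high for H3K27me3). A factor that this rule names is not reported here. Python 3.11.15, pandas 2.3.3, numpy 2.4.6, scipy 1.17.1 and matplotlib 3.10.9 were used.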

Additional observations from a re-analysis of the deposited data

How the results depend on the processing

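Flanks of 10 kb and 0 kb, a -log10 q of at least 5, an overlap of at least 50% of the peak, regions of at least 20 reads, regions within peaks, summed reads, centring, and 2 settings chosen after seeing the data (leaving out peaks and regions nearer to a neighbour's start within 2000 bp, and the G-test on recovered reads) were tried. Of 58 alternatives for counts and medians 55 stayed within the limits set and 3 moved. The limits passed some changes of membership. With a flank of 10 kb RAX2 gained H3K4me3 peaks in both conditions and H3K27me3 peaks in both lists. The counts were then 7 genes in OTX2low and 8 in OTX2high for H3K4me3, and 3 in each H3K27me3 list. Without a flank 3 genes (RAX, NRL and PRDM1) rather than 5 had H3K4me3 regions higher in OTX2high, since those of RAX2 and VSX1 lie outside the gene spans. With regions of at least 20 normalized reads, or regions within peaks, 6 genes did, THRB joining the 5. The count was 4 after centring (without NRL) and 4 without regions nearer to a neighbour's start (without RAX2). Centred on the median over genes with a listed region, the members' median was -0.1 rather than -0.63 for H3K4me3 and 0.09 rather than 0.41 for H3K27me3. Of 54 alternatives for single genes 48 stayed, 4 moved and 2 reversed. The 48 include the G-test on recovered reads, which was run only on regions already listed by a G-test and so had little room to change. Centring gave H3K4me3 ratios of 0.12 at NRL's region with the most reads and 0.08 at THRB, and left -0.03 at RAX. With a -log10 q of at least 5, 6 genes instead of 7 had H3K4me3 in OTX2high, PRDM1 being lost. The weak PRDM1 and THRB regions rest on 30 reads or fewer in each library. The part that unequal depth (20914582 tags in OTX2low, 33137731 in OTX2high) plays in the peak lists was not tested. No paired analysis was possible because each mark had 1 library per condition.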

Other observations

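Split by cell class, the 49 other retinal factors differed in how often both marks were called. Among ganglion, amacrine and horizontal cell factors, which are used in other neurons as well, 8 of 16 had peaks in all 4 lists (50.0%). The counts were 6 of 14 for eye field and progenitor factors (42.9%), 3 of 9 for bipolar cell factors (33.3%) and 2 of 10 for photoreceptor factors (20.0%), beside 11.5% of all genes. These are descriptions with no test. H3K4me3 regions were all higher in OTX2high at 5 of the 10 photoreceptor factors, OTX2 itself among them, near the 43.5% of all genes. The median log2 ratio of OTX2low over OTX2high at these 5 was -0.88, beside -0.53 over all genes with a region.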
